A study of Homo sapiens with 12 samples.

Results

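The genes described are 10 transcription factors that set B-cell identity and stage: PAX5, EBF1, TCF3, LEF1, IKZF1, IKZF3, FOXO1, IRF4, BCL6 and SPIB. They were taken by symbol from a table of 60664 genes, each matched to 1 row, and all 10 were among the 17349 genes with enough counts to be tested. RNA was sequenced from TOM-1, a Philadelphia chromosome-positive B-cell acute lymphoblastic leukaemia line that carries BCR::ABL1, and from RS4;11, a B-cell acute lymphoblastic leukaemia line with a KMT2A rearrangement. The 4 groups of 3 libraries were TOM-1 in control culture, TOM-1 given 1000 ng/ml ADI-PEG20 for 24 h, RS4;11 in control culture and RS4;11 given the same dose for the same time. ADI-PEG20 depletes arginine outside the cell: it is arginine deiminase, which converts arginine to citrulline, coupled to polyethylene glycol. ASS1, the subject of the series, is the enzyme that lets a cell rebuild arginine from citrulline. Both lines are recorded as wild-type lymphoblasts. Each stands for 1 patient's leukaemia, so a difference between the lines cannot be told apart from a difference between individuals, and nothing states that the 3 libraries of a group came from separate cultures.

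In normal bone marrow TCF3, an E protein whose products are E12 and E47, and EBF1 open the B-lineage programme, and PAX5 then commits cells to it. IKZF1 (Ikaros) and its relative IKZF3 (Aiolos) act at the pro-B and pre-B stages, where pre-B-cell receptor signalling and interleukin-7 receptor signalling compete, while FOXO1 drives the recombinase genes RAG1 and RAG2 and the interleukin-7 receptor gene IL7R. IRF4 and SPIB act downstream of the pre-B-cell receptor, BCL6 protects pre-B cells from the damage of light-chain rearrangement and later directs the germinal centre, and LEF1 is a pro-B factor that relays WNT signals. Losses or fusions of IKZF1, PAX5, EBF1 and TCF3 are recurrent lesions of this leukaemia.

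Total counts ran from 18958144 to 35956959 per library. The third TOM-1 control library stood apart from the other 11: it had counts in 14963 genes against 19857 to 21997, and ribosomal protein genes took 19.8% of its counts against 5.91% to 9.89%. In counts scaled to library size (CPM) it gave the lowest of the 3 TOM-1 control levels for 8 of the 10 factors and the highest for TCF3 and SPIB, so results for the 10 factors that involve TOM-1 control are given with and without it. All 12 B-lineage marker genes tested had counts, and their summed level was 7505 to 9917 CPM in TOM-1 and 2070 to 2333 CPM in RS4;11. In TOM-1 with ADI-PEG20 2 of the 12 passed, both lower, where 31.9% of all tested genes passed. Without the third control 4 passed lower and 2 higher, where 41.6% of genes passed. MS4A1 (CD20) and MME (CD10) had at most 7 counts in any RS4;11 library. Of the T-cell markers CD3G, TRBC1, TRBC2 and CD7 were at 0 in all 12 libraries, and the T-cell list's summed level of 123 to 210 CPM in TOM-1 and 425 to 481 CPM in RS4;11 came almost wholly from TRAC. ELANE, FCGR3A and S100A8, markers of myeloid cells, were also at 0 throughout, and the myeloid list's summed level was 31.9 to 47.6 CPM in TOM-1 control, 22.8 to 33.9 CPM in TOM-1 with ADI-PEG20 and 33.7 to 40.02 CPM in RS4;11. In TOM-1 with ADI-PEG20, 3 of the 7 tested genes of that list passed, where 31.9% of all tested genes did. CSF1R and CEBPA were lower and CSF3R higher. None of the 2 tested T-cell and 1 tested erythroid and megakaryocyte markers passed, and 1 of the 4 tested plasma-cell markers did (XBP1, higher). The part of these markers in the results was not tested. In bulk RNA, fewer cells with a transcript and less transcript per cell cannot be told apart.

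Promoter sequence is shown for 4 of the 6 factors that changed with ADI-PEG20 in TOM-1, so that the 3 factors that rose can be read beside 1 that fell. The letters are the 250 bases before the RefSeq transcription start in GRCh38.p14, on the gene's own strand, 5′ to 3′. Capitals mark matches, on either strand, to letters known from the factors' own binding sites or from amino acid starvation: CAGNTG (the E-box of E proteins), TGGGAA (the Ikaros core), the interferon regulatory element (GAAA, any 2 bases, then GAAA) and TGATGNAA (the amino acid response element). In the 35116 promoter windows of the table these letters occur in 42.5%, 20.8%, 3.02% and 3.14%, respectively.
EBF1 (chr5:159097957-159098206, minus strand): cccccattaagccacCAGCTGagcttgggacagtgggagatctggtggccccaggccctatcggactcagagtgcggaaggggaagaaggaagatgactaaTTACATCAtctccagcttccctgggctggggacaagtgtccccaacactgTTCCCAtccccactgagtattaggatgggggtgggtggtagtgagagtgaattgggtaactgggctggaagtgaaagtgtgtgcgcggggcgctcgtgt
FOXO1 (chr13:40666642-40666891, minus strand): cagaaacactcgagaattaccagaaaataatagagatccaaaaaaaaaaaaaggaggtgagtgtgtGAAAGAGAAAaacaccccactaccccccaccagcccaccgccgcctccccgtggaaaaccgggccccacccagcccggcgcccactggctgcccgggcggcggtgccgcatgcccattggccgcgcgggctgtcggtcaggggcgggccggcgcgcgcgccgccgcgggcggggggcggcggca
IRF4 (chr6:391502-391751, plus strand): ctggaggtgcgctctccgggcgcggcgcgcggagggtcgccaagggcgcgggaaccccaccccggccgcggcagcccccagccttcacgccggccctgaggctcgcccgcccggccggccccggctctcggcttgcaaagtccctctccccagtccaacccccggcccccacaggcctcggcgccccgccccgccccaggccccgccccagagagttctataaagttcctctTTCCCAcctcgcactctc
IKZF1 (chr7:50304466-50304715, plus strand): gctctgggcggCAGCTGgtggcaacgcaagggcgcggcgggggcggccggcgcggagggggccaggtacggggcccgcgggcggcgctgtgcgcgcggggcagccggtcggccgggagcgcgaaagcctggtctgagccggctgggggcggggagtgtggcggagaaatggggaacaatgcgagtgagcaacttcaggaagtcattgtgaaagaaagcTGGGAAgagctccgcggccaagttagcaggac
The EBF1 window held 1 E-box, 1 Ikaros core and 1 amino acid response element, at -235, -99 and -149 from the start. The FOXO1 window held 1 interferon regulatory element at -184, the IRF4 window 1 Ikaros core at -18, and the IKZF1 window 1 E-box at -239 and 1 Ikaros core at -32. GENCODE release 29 places 0 of the 250 bases of the EBF1 and FOXO1 windows in an exon of the gene, against 13 for IRF4 and 47 for IKZF1, whose window is the most upstream of 3 that RefSeq lists. The other IKZF1 windows, not shown, held no match to any of the letters searched. A match here is a description of the letters, not a site shown to be bound. The SPIB window held none of the 9 sets of letters searched, and the table has no entry for IKZF3.

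Per transcript length, LEF1, TCF3 and PAX5 were the most abundant of the 10 factors in every group. In TPM, a level scaled by transcript length and by library, LEF1 averaged 586 ± 209 (SD, n = 3) in TOM-1 control, 716 ± 7.19 in TOM-1 with ADI-PEG20, 667 ± 27.2 in RS4;11 control and 659 ± 32.6 in RS4;11 with ADI-PEG20. These means exceeded those of 98.8% to 99.1% of tested genes. TCF3 followed at 520 to 650 TPM and PAX5 at 282 to 456 TPM as group means, and the ranges of LEF1 and TCF3 overlapped in TOM-1 control but in no other group. Below them the lines differed in order. In both RS4;11 groups EBF1, IKZF1 and IRF4 came next, then BCL6, FOXO1, SPIB and, at the bottom, IKZF3 (2.17 ± 0.49 TPM in control), and no neighbours in that order overlapped. In TOM-1 with ADI-PEG20 the order was IRF4, EBF1, FOXO1, IKZF1, IKZF3, BCL6 and SPIB, and only IKZF3 (15.6 to 16.6 TPM) and BCL6 (14.2 to 16.3 TPM) overlapped. SPIB was last in TOM-1 at 0.72 ± 0.33 TPM with ADI-PEG20. In TOM-1 control neighbours from PAX5 down to BCL6 all overlapped, with the third library included.

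**Figure D1:**
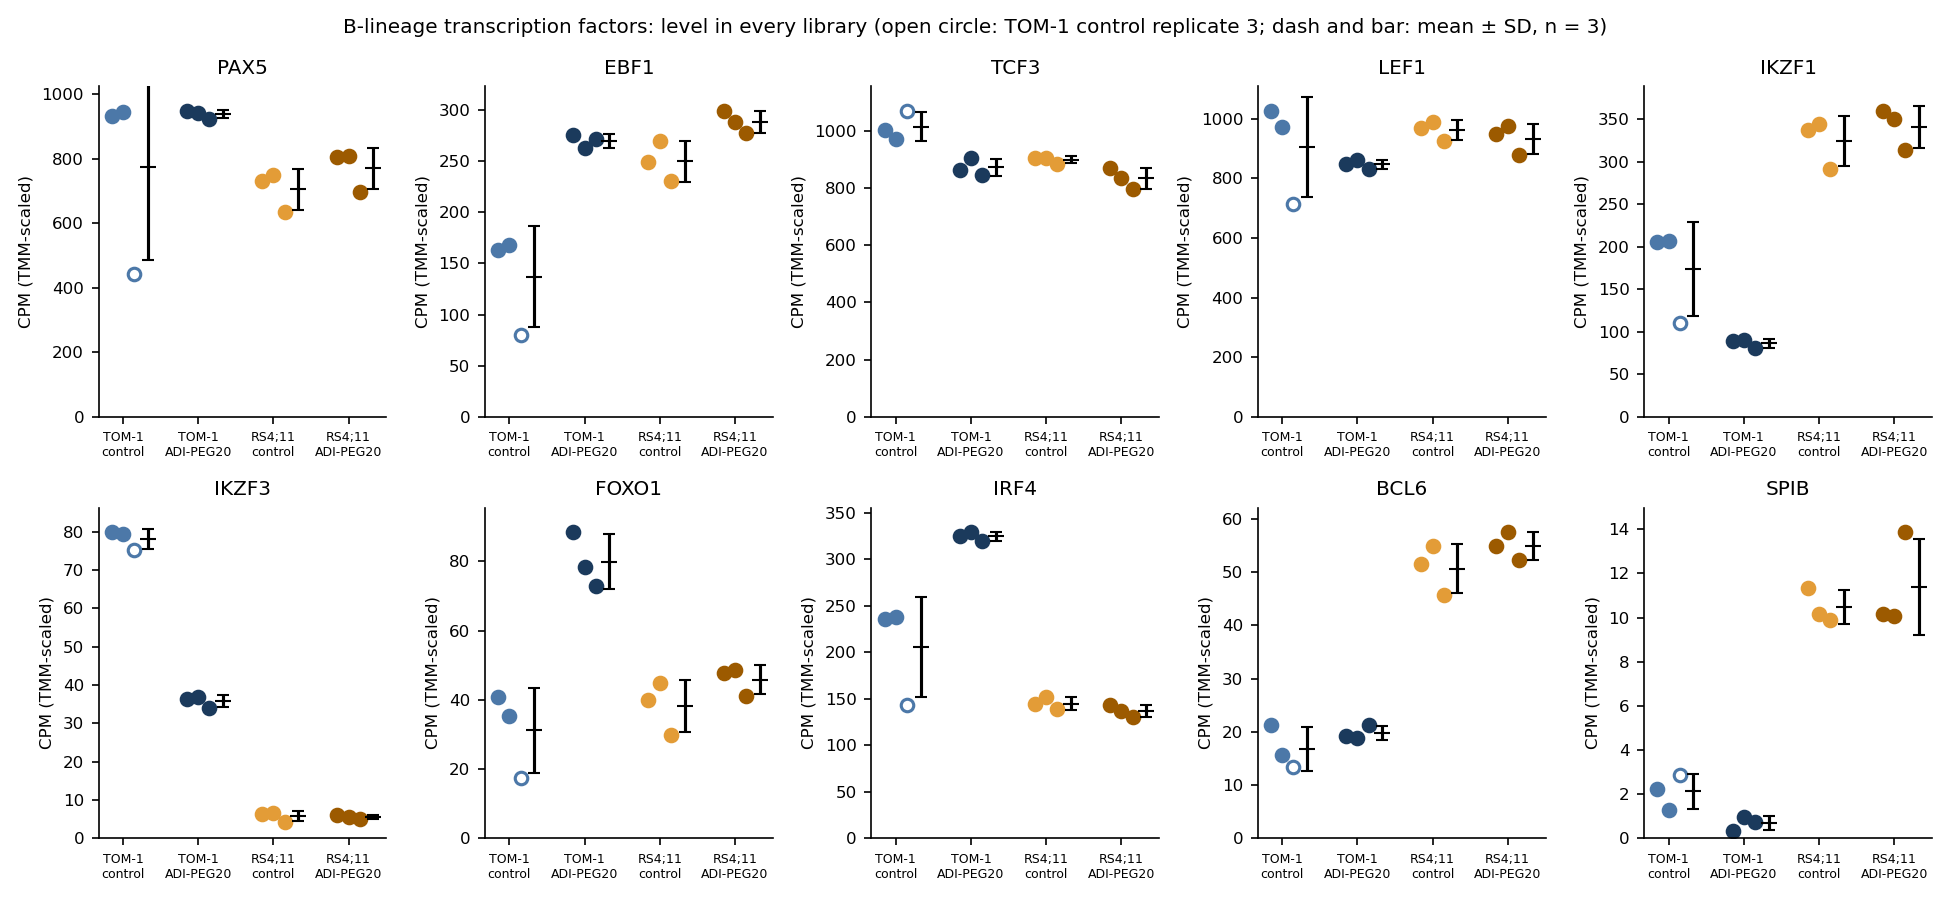
Level of each factor in CPM after TMM scaling (y axis, from 0) in each of the 12 libraries by group (x axis). Points are libraries, the open circle is TOM-1 control replicate 3, and the dash with bar is the mean ± SD (n = 3). IKZF3 sits at 75.2 to 79.9 CPM in TOM-1 control and below 7 CPM in RS4;11, and in TOM-1 the control and ADI-PEG20 libraries do not overlap for IKZF1, IKZF3, FOXO1, IRF4, EBF1, TCF3 and SPIB.

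In TOM-1, ADI-PEG20 lowered both Ikaros-family members and SPIB, and raised FOXO1, EBF1 and IRF4. By edgeR's quasi-likelihood test with Benjamini-Hochberg adjustment over all tested genes, 6 of the 10 factors passed an adjusted p of 0.05, 3 in each direction, where 31.9% of all tested genes passed. Of all tested genes 15.9% passed in each direction. Without the third control library 8 of 10 passed, 3 higher and 5 lower, where 41.6% of genes did, 21.8% higher and 19.8% lower. The libraries of the 2 TOM-1 groups did not overlap for 7 of the 10 factors, against 46.2% of all tested genes.

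IKZF1, the zinc-finger repressor whose deletion marks high-risk disease, measured 205, 206 and 109.9 CPM in the TOM-1 control libraries and 89.4, 89.9 and 80.6 CPM with ADI-PEG20. All 3 treated libraries were below all 3 controls, and the third control lay nearer to the treated libraries than to its own group. The log2 fold change was -1.01 (SE 0.20, adjusted p = 0.00289), and -1.25 without the third control. IKZF3, which takes over from Ikaros at pre-B-cell receptor signalling, measured 79.9, 79.3 and 75.2 CPM in control and 36.3, 37.0 and 34.0 CPM with ADI-PEG20. Here the third control lay close to the other 2 and the groups lay far apart. IKZF3 fell 2.18-fold (log2 fold change -1.13, SE 0.16, adjusted p = 0.000274), and its log2 fold change was -1.16 without the third control.

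SPIB, an ETS factor close to PU.1, was scarce in TOM-1, with 79, 33 and 52 counts in control and 8, 25 and 19 with ADI-PEG20. These are 2.25, 1.29 and 2.87 CPM against 0.34, 0.95 and 0.75 CPM, with no overlap. The log2 fold change was -1.62 (SE 0.37, adjusted p = 0.00635), and -1.38 without the third control. In the annotation 19.6% of the exonic bases of SPIB are shared with AC020909.1 on the same strand, so reads there could be counted for either or for neither. Other overlaps were smaller: 4.32% of FOXO1 on the same strand, and 8.23% of BCL6 and 5.20% of LEF1 on the opposite strand.

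FOXO1, the forkhead factor held out of the nucleus by PI3K and AKT signalling, measured 40.7, 35.5 and 17.4 CPM in TOM-1 control and 88.4, 78.3 and 72.8 CPM with ADI-PEG20. Every treated library exceeded every control, and the third control was the lowest of the 6. FOXO1 rose 2.55-fold (log2 fold change 1.35, SE 0.26, adjusted p = 0.00228), and 2.09-fold without the third control. EBF1 measured 163, 169 and 80.1 CPM in control and 276, 263 and 271 CPM with ADI-PEG20. The treated libraries stood above all controls, the third control again lowest. EBF1 rose 1.97-fold (log2 fold change 0.98, SE 0.22, adjusted p = 0.00535), and 1.63-fold without that library.

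IRF4, an interferon regulatory factor that ends pre-B-cell proliferation, measured 236, 238 and 144 CPM in control and 325, 329 and 319.7 CPM with ADI-PEG20. The 2 groups did not overlap, and the gap was widest to the third control. IRF4 rose 1.58-fold (log2 fold change 0.66, SE 0.16, adjusted p = 0.00979), and 1.37-fold without it. When the fit held only the 6 TOM-1 libraries, IKZF1, IKZF3 and FOXO1 passed and the adjusted p was 0.0592 for EBF1, 0.0841 for IRF4 and 0.101 for SPIB.

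The other 4 factors did not pass in TOM-1 with all 12 libraries. PAX5, the commitment factor, measured 933, 945 and 443 CPM in control and 950.2, 942 and 925 CPM with ADI-PEG20. On this scale the first 2 controls lie among the treated libraries, and only the third is low. Its log2 fold change was 0.28 (SE 0.22, adjusted p = 0.389) and -0.0026 (SE 0.07) without the third control. TCF3 measured 1003, 970.3 and 1071 CPM in control and 865, 906 and 846 CPM with ADI-PEG20, and LEF1 measured 1027, 973 and 715 CPM against 847, 863 and 832 CPM. On the CPM scale TCF3 was lower in every treated library than in any control, while the third LEF1 control lay below the treated range. Their log2 fold changes were -0.22 (adjusted p = 0.0926) and -0.10 (adjusted p = 0.639), and without the third control -0.18 (adjusted p = 0.00864) and -0.24 (adjusted p = 0.00118). BCL6, the repressor of the germinal centre, overlapped between the groups at 21.3, 15.6 and 13.4 CPM against 19.2, 18.8 and 21.2 CPM (log2 fold change 0.23, adjusted p = 0.324; 0.08 without the third control).

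Some of these patterns depended on the scale. In TPM, which is not scaled by TMM, TCF3 was 622, 607 and 455.5 in TOM-1 control and 643, 670.3 and 637 with ADI-PEG20, so every treated library was higher, the opposite of the order in CPM. PAX5 in TPM was 377, 385 and 123 against 461, 454 and 453, and BCL6 13.5, 10.02 and 5.81 against 14.7, 14.2 and 16.3, with all treated libraries above all controls. IKZF1 in TPM was 70.8, 71.8 and 26.0 against 37.0, 37.0 and 33.7, so that the third control fell below the treated libraries. LEF1 in TPM was 722, 690 and 345 in control against 715, 724 and 710. The first 2 LEF1 controls, above every treated library in CPM, did not stand apart from them in TPM. IKZF3, SPIB, FOXO1, EBF1 and IRF4 kept on the TPM scale the direction and the separation seen in CPM.

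**Figure D2:**
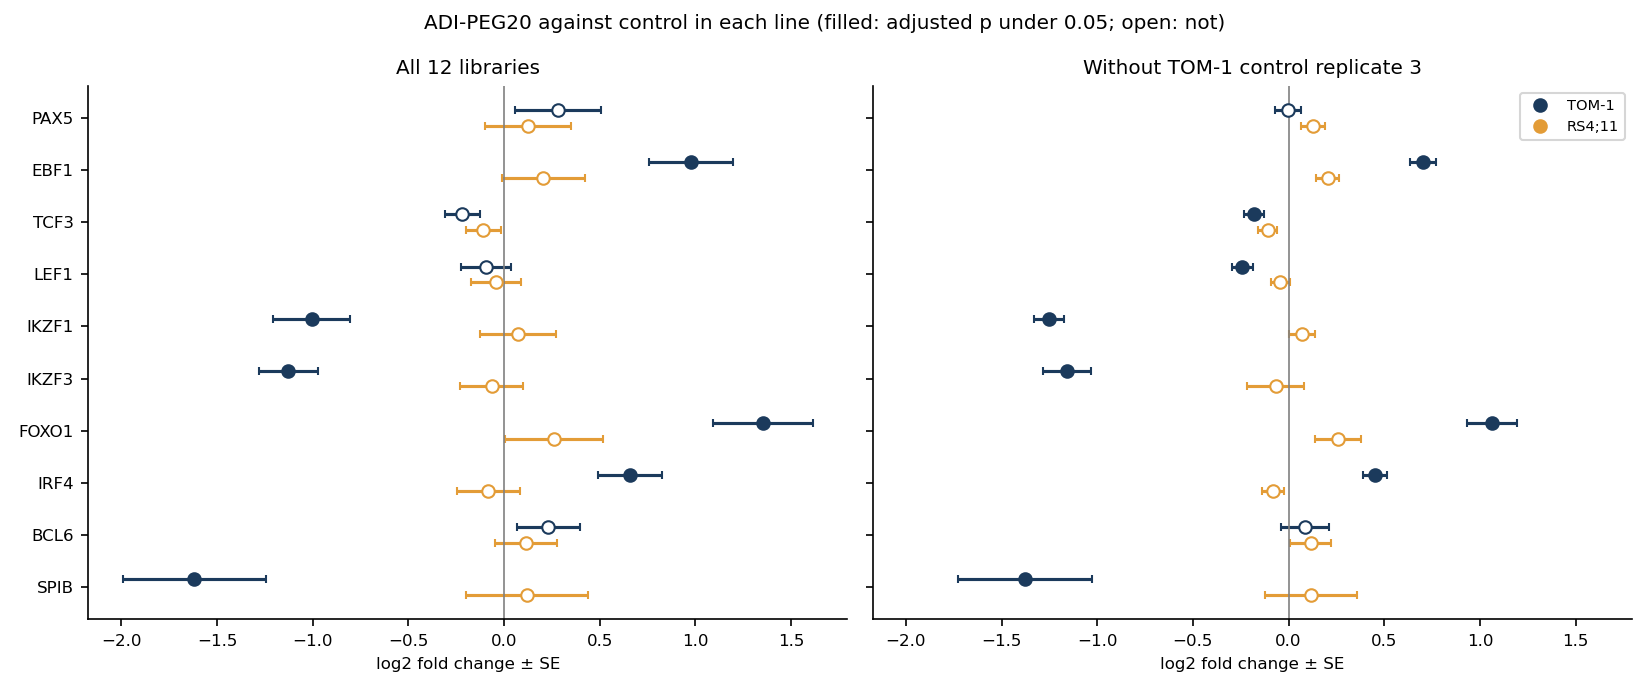
Log2 fold change of each factor, ADI-PEG20 against control (x axis, mean and SE), in TOM-1 (dark) and RS4;11 (orange), with all 12 libraries on the left and without TOM-1 control replicate 3 on the right. Filled points passed an adjusted p of 0.05. In both panels IKZF1, IKZF3 and SPIB are lower and FOXO1, EBF1 and IRF4 higher in TOM-1, and no RS4;11 value passes.

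In RS4;11 none of the 10 factors passed, and neither did any other gene: 0.0% of the 17349 tested genes were called by edgeR, where 325 had an unadjusted p under 0.05 (DESeq2 called 0, with 500 unadjusted). Without the third TOM-1 control edgeR called 58 of 18321 genes in RS4;11, and 2207 had an unadjusted p under 0.05. Every one of the 10 factors had a log2 fold change between -0.11 and 0.26. EBF1 measured 249.7, 270.1 and 230.2 CPM in control and 299.6, 288 and 277 CPM with ADI-PEG20 (log2 fold change 0.21, SE 0.22, adjusted p = 1). TCF3 measured 906, 907 and 885 CPM against 870.1, 835 and 796 CPM (log2 fold change -0.11, adjusted p = 1). These were the 2 factors whose RS4;11 groups did not overlap, where 16.8% of all tested genes did not.

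The 3 factors that fell in TOM-1 overlapped between the RS4;11 groups. IKZF1 lay at 338, 345 and 292 CPM in control and 361, 351 and 314 CPM with ADI-PEG20 (log2 fold change 0.07, SE 0.20). IKZF3 lay at 6.44, 6.67 and 4.35 CPM against 6.14, 5.59 and 4.97 CPM, and SPIB at 11.3, 10.2 and 9.90 CPM against 10.2, 10.1 and 13.9 CPM. FOXO1 measured 39.9, 44.7 and 29.9 CPM in control and 47.7, 48.6 and 41.0 CPM with ADI-PEG20, and the groups overlapped (log2 fold change 0.26, SE 0.26). IRF4 lay at 139 to 152 CPM against 130.1 to 143 CPM, PAX5 at 634 to 752 CPM against 698 to 808 CPM, BCL6 at 45.6 to 54.8 CPM against 52.2 to 57.5 CPM, and LEF1 at 923 to 989.5 CPM against 877 to 975 CPM. Without the third TOM-1 control, which enters this fit through the shared estimate of spread, 0.317% of genes passed and the lowest adjusted p among the 10 was 0.134, for EBF1.

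Whether the 2 lines responded differently was tested as the difference of the TOM-1 and RS4;11 log2 fold changes, for which 11.9% of genes passed. Of the 10 factors 3 passed, all lower in TOM-1, where 6.05% of genes passed in that direction: IKZF3 at -1.06 (SE 0.23, adjusted p = 0.0111), IKZF1 at -1.08 (SE 0.28, adjusted p = 0.0297) and SPIB at -1.74 (SE 0.49, adjusted p = 0.0396). IKZF3 passed under all 20 alternatives run for this difference. IKZF1 missed the threshold in 8 of the 12 fits with 1 library left out, with adjusted p between 0.0568 and 0.0726, namely without any 1 of the TOM-1 ADI-PEG20 or RS4;11 control libraries or without RS4;11 ADI-PEG20 replicate 1 or 2. SPIB missed it in 9 of the 12, without TOM-1 control replicate 1, TOM-1 ADI-PEG20 replicate 1 or 3, or any 1 of the 6 RS4;11 libraries (adjusted p up to 0.0944 over all alternatives). The factors that rose in TOM-1 missed the threshold, with differences of 1.09 for FOXO1 (adjusted p = 0.0724), 0.74 for IRF4 (adjusted p = 0.0592) and 0.77 for EBF1 (adjusted p = 0.126). Without TOM-1 control replicate 3 all 3 passed, at 0.80 (adjusted p = 0.0012), 0.54 (adjusted p = 3.88e-05) and 0.50 (adjusted p = 0.000185), and so did 30.4% of all genes. IKZF1, IKZF3 and SPIB then stood at -1.32, -1.09 and -1.49, all past the threshold. FOXO1 and IRF4 also passed without TOM-1 control replicate 1, and IRF4 without replicate 2; each passed under 7 of the 20 alternatives. PAX5, TCF3, BCL6 and LEF1 had differences of 0.15, -0.11, 0.12 and -0.05, none of which passed, and -0.13, -0.07, -0.03 and -0.20 without that library (lowest adjusted p 0.0501, for LEF1).

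In control culture the 2 lines differed most in IKZF3, SPIB and BCL6. IKZF3 was 13.4-fold higher in TOM-1, at 75.2 to 79.9 CPM against 4.35 to 6.67 CPM in RS4;11 (log2 fold change 3.74, SE 0.17, adjusted p = 2.28e-08). SPIB was 4.93-fold lower in TOM-1, at 1.29 to 2.87 CPM against 9.90 to 11.3 CPM (log2 fold change -2.30, adjusted p = 0.000224), and BCL6 was 3.01-fold lower, at 13.4 to 21.3 CPM against 45.6 to 54.8 CPM (log2 fold change -1.59, adjusted p = 1.27e-05). In each of the 3 the lines did not overlap, and without the third TOM-1 control the log2 fold changes were 3.76, -2.55 and -1.45. In total 6 of the 10 passed, where 34.7% of tested genes did, and the lines did not overlap for 6 of the 10, against 42.7% of tested genes. Without the third TOM-1 control 8 of the 10 passed, where 52.8% of genes did. IKZF1 and EBF1 were lower in TOM-1, with log2 fold changes of -0.90 (adjusted p = 0.00411) and -0.86 (adjusted p = 0.00865), or -0.66 and -0.60 without the third TOM-1 control. With only the 2 control groups in the fit neither passed (adjusted p = 0.0521 and 0.0823). IRF4 was higher at 0.51 (adjusted p = 0.0321), but its lines overlapped through the third TOM-1 control (144 CPM), and it missed the threshold in 10 of the 12 fits with 1 library left out, all but those without TOM-1 control replicate 3 or RS4;11 ADI-PEG20 replicate 1, with adjusted p up to 0.150. Without the third TOM-1 control IRF4 was 1.63-fold higher (adjusted p = 3.13e-09), PAX5 passed at 0.41 (adjusted p = 3.68e-05) against 0.13 (adjusted p = 0.702) with it, and TCF3 passed at 0.13 (adjusted p = 0.044).

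With ADI-PEG20 in both lines 6 of the 10 again passed, where 47.2% of tested genes did, and the lines did not overlap for 9 of the 10, against 70.6% of tested genes. IKZF1 was 3.94-fold lower in TOM-1, at 80.6 to 89.9 CPM against 314 to 361 CPM (log2 fold change -1.98, SE 0.21, adjusted p = 9.23e-06). SPIB was 16.4-fold lower (log2 fold change -4.04, adjusted p = 3.83e-06), and IKZF3 was 6.42-fold higher (log2 fold change 2.68, adjusted p = 1.39e-07). So the IKZF1 and SPIB gaps between the lines were wider, and the IKZF3 gap narrower, than in control culture, which is the difference of responses tested above. IRF4 was 2.37-fold higher in TOM-1 (log2 fold change 1.25, adjusted p = 6.85e-05) and BCL6 2.78-fold lower (log2 fold change -1.48, adjusted p = 1.67e-05). FOXO1 was 1.75-fold higher (log2 fold change 0.80, adjusted p = 0.0227), but missed the threshold in 5 of the fits with 1 library left out: TOM-1 ADI-PEG20 replicate 1 or 2, or any 1 of the RS4;11 ADI-PEG20 libraries (adjusted p up to 0.118). EBF1, which differed between the lines in control culture, measured 263 to 276 CPM in TOM-1 and 277 to 299.6 CPM in RS4;11 with ADI-PEG20 (log2 fold change -0.09, adjusted p = 0.752). PAX5, TCF3 and LEF1 did not pass at 0.29, 0.07 and -0.14; without the third TOM-1 control PAX5 (0.28) and LEF1 (-0.14) did, so that 8 of the 10 passed, where 62.9% of genes did.

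**Figure D3:**
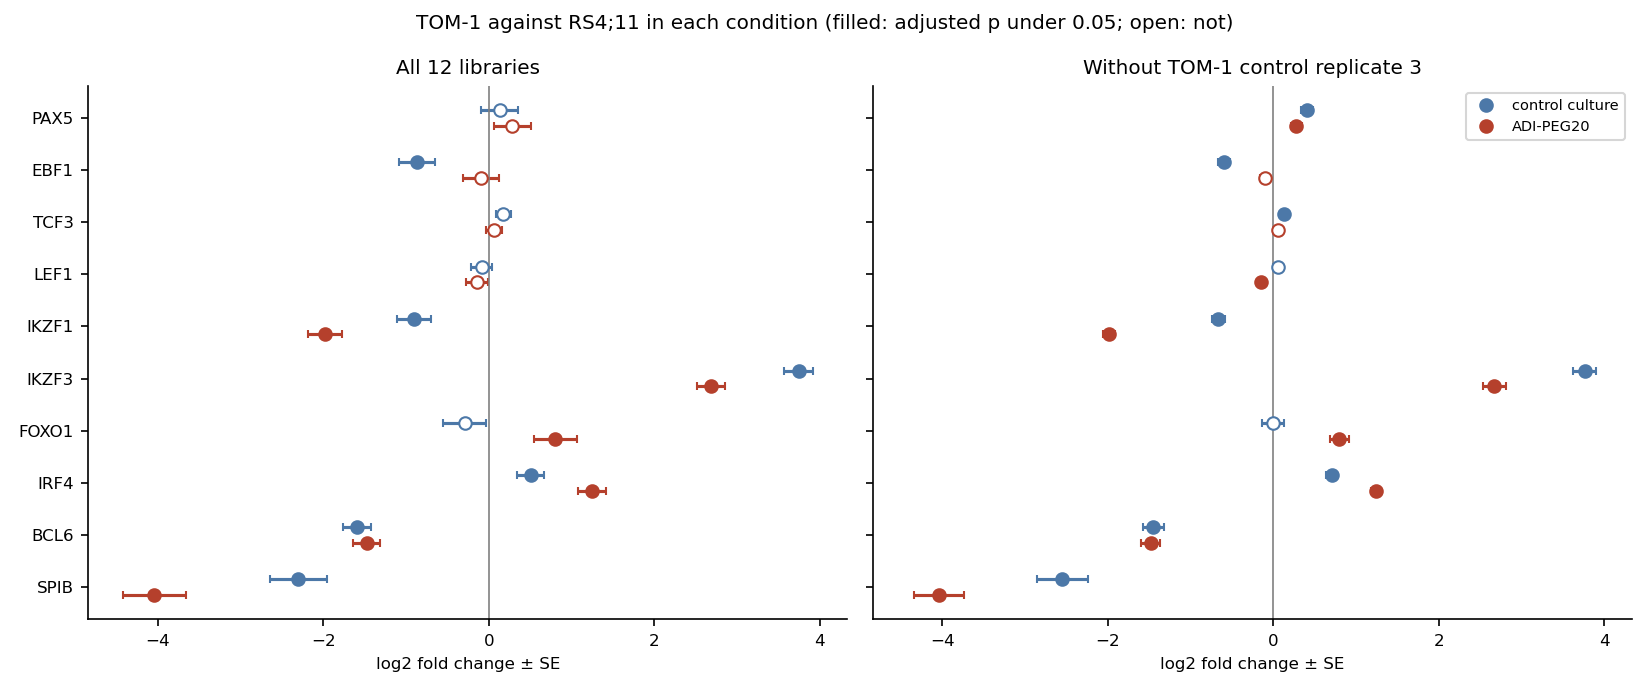
Log2 fold change of each factor, TOM-1 against RS4;11 (x axis, mean and SE), in control culture (blue) and with ADI-PEG20 (red), with all 12 libraries on the left and without TOM-1 control replicate 3 on the right. Filled points passed an adjusted p of 0.05. The IKZF1 and SPIB values lie further left with ADI-PEG20 and the IKZF3 value lies nearer to 0.

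The relatives of the 10 factors and the inhibitors of E proteins were followed to see what surrounds each member. Of 18 relatives 16 were tested, and in TOM-1 5 passed with ADI-PEG20, 4 higher and 1 lower, where 31.9% of all tested genes passed. Their median log2 fold change was 0.40 against 0.05 over all tested genes. Without the third control 8 rose and 1 fell, where 41.6% of genes passed, and the median was 0.24. IKZF2 (Helios), the Ikaros relative of T cells and progenitors, measured 18.5, 18.8 and 4.36 CPM in TOM-1 control and 32.0, 33.4 and 31.0 CPM with ADI-PEG20. It rose while IKZF1 and IKZF3 fell (log2 fold change 1.20, adjusted p = 0.027; 0.78 without the third control). In TPM the sum over IKZF1 to IKZF5 was 145, 149 and 56.6 in TOM-1 control and 116, 121 and 118 with ADI-PEG20. Within that sum IKZF1 took 48.7%, 48.3% and 45.9% in control and 31.8%, 30.6% and 28.6% with ADI-PEG20, so its share was lower in every treated library. In RS4;11 the IKZF1 share was 58.9% to 60.02% in control and 56.5% to 59.6% with ADI-PEG20.

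FOXO3, a second forkhead factor under AKT control, measured 50.6, 52.8 and 18.9 CPM in TOM-1 control and 83.0, 93.2 and 91.1 CPM with ADI-PEG20, rising beside FOXO1 (log2 fold change 1.13, adjusted p = 0.0113; 0.78 without the third control). TCF7, the T-lineage partner of LEF1, rose from 3.59 to 4.47 CPM to 10.7 to 13.1 CPM (log2 fold change 1.51, adjusted p = 0.00461), and BCL6B, the closest relative of BCL6, rose from 25.3 to 31.3 CPM to 89.9 to 95.4 CPM (log2 fold change 1.68, adjusted p = 0.00128). Both rose where, with all 12 libraries, LEF1 and BCL6 themselves did not pass. In RS4;11 BCL6B had at most 6 counts in any library. TCF7L1 fell (log2 fold change -1.63, adjusted p = 0.0445), from 19 to 29 counts to 4 to 12, and its adjusted p was 0.0941 without the third control.

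The other close relatives did not pass in TOM-1 with all 12 libraries. TCF4, an E protein like TCF3, measured 162, 152 and 60.2 CPM in control and 190.2, 183 and 178 CPM with ADI-PEG20 (log2 fold change 0.56, adjusted p = 0.143), and IKZF5 41.2, 41.0 and 16.4 CPM against 48.8, 52.8 and 56.1 CPM (log2 fold change 0.67, adjusted p = 0.0717). In both the groups did not overlap, and without the third control both passed, at 0.22 and 0.35. SPI1 (PU.1), the ETS factor related to SPIB, measured 62.7, 64.9 and 167.5 CPM against 86.6, 78.3 and 84.4 CPM. Only the third control lay above the treated libraries, and the log2 fold change turned from -0.24 (adjusted p = 0.595) to 0.38 (adjusted p = 0.000372) without it. IKZF4 stood at -0.30, or -0.68 (adjusted p = 0.0205) without that library. TCF12, FOXO4 and IRF8 stood at 0.32, 0.47 and 0.08, and at -0.05, 0.08 and -0.0056 without it, and did not pass either way. EBF4 had 0 counts in all 6 TOM-1 libraries and 19 to 59 in RS4;11.

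E proteins act as dimers, and the ID proteins hold them off DNA. ID3 measured 304, 332 and 675 CPM in TOM-1 control and 89.8, 95.4 and 90.5 CPM with ADI-PEG20. All 3 controls stood well above the treated libraries, and the third was the highest. ID3 fell 4.75-fold (log2 fold change -2.25, SE 0.25, adjusted p = 7.15e-05), and 3.46-fold without the third control. The difference from RS4;11, where ID3 was 135 to 149 CPM in control and 112 to 128 CPM with ADI-PEG20, was -2.05 on the log2 scale (adjusted p = 0.00324). ID2 rose in TOM-1 (log2 fold change 1.07, adjusted p = 0.0229) from 1.05 to 1.79 CPM to 2.60 to 2.87 CPM, ID1 did not pass, and ID4 had too few counts to be tested. The TPM sum of TCF3, TCF4 and TCF12 over that of ID1 to ID4 was 1.36, 1.20 and 0.52 in TOM-1 control and 3.99, 3.92 and 3.90 with ADI-PEG20, against 2.57 to 2.80 and 2.86 to 3.00 in the 2 RS4;11 groups. TOM-1 control thus held the lowest 3 of the 12 ratios and TOM-1 with ADI-PEG20 the highest 3.

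**Figure D4:**
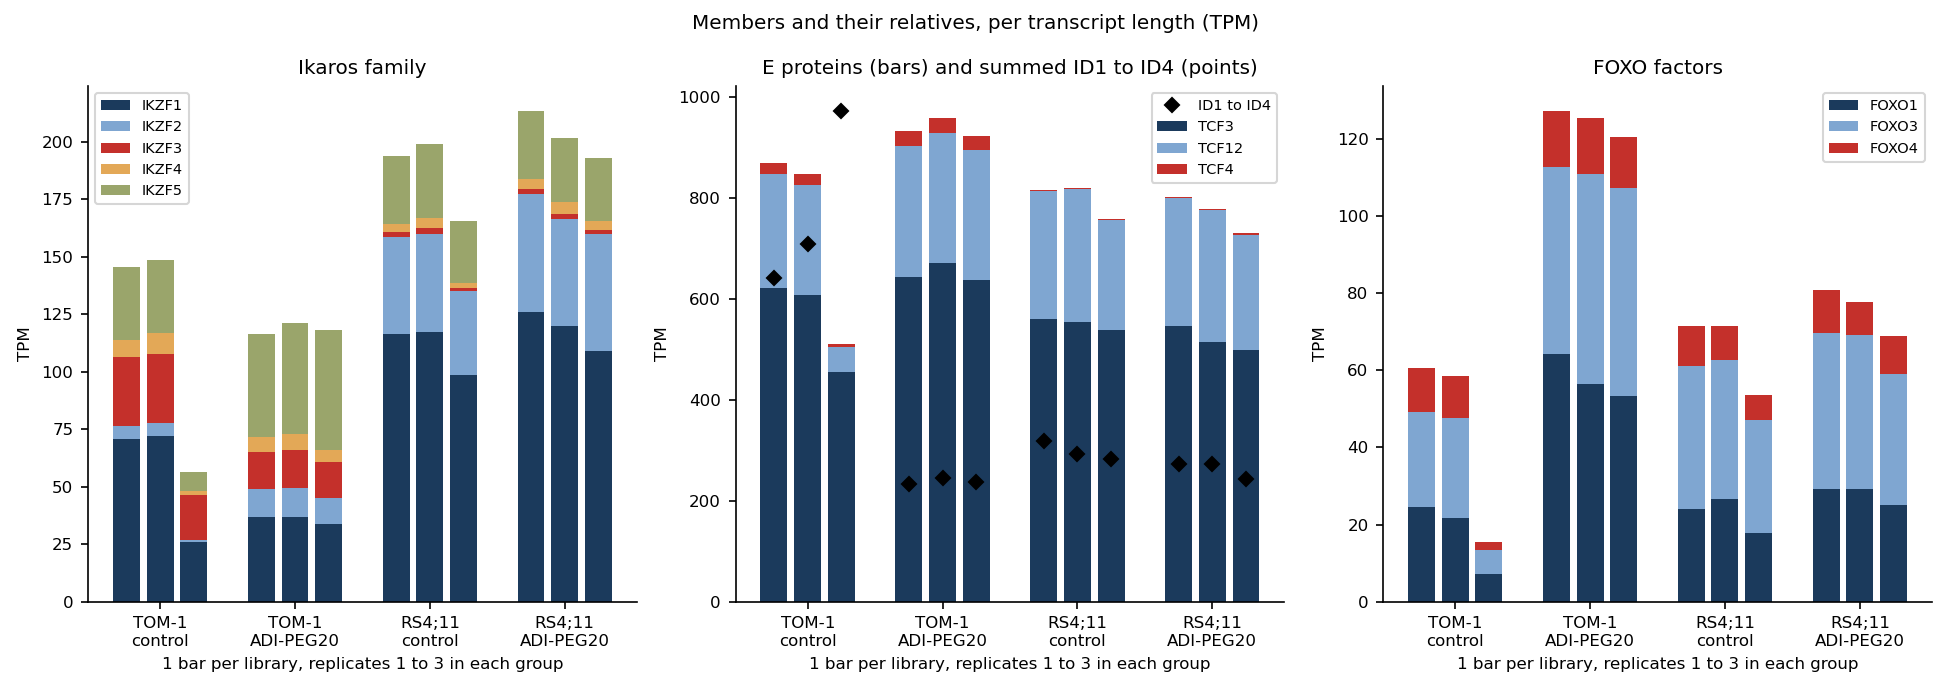
TPM (y axis) in each library (1 bar each, 3 per group) for the Ikaros family, for the E proteins with the summed ID1 to ID4 as points, and for FOXO1, FOXO3 and FOXO4. The IKZF1 segment is smaller in TOM-1 with ADI-PEG20 than in the first 2 controls, the ID points are lower in every treated TOM-1 library than in any TOM-1 control, and the third TOM-1 control bar is the shortest of its group in every panel.

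Among 25 other regulators of B-cell development, all tested, 11 rose and 1 fell in TOM-1, where 15.9% of all tested genes passed in each direction, with a median log2 fold change of 0.75. Without the third control 16 rose and 3 fell, where 21.8% of genes passed higher and 19.8% lower, and the median was 0.64. POU2AF1, the octamer-factor coactivator OBF1, measured 89.3, 89.4 and 84.9 CPM in control and 242, 229 and 219 CPM with ADI-PEG20 (log2 fold change 1.39, adjusted p = 7.58e-06). MYB, which sustains pro-B cells, measured 828, 789 and 533 CPM against 1748, 1746 and 1650 CPM (log2 fold change 1.26, adjusted p = 0.000139). BACH2, a transcriptional repressor, rose from 54.6 to 142 CPM to 275 to 294 CPM (log2 fold change 1.40, adjusted p = 0.00216). BCL11A rose from 72.3 to 107 CPM to 203 to 229.6 CPM (log2 fold change 1.21, adjusted p = 0.000122). KLF2, with 52, 30 and 0 counts in control and 158, 196 and 207 with ADI-PEG20, had a fitted log2 fold change of 3.02 (adjusted p = 0.0245), and 2.48 without the third control. ZEB2, ZEB1, ETV6, MEF2D, SOX4 and XBP1 were the others that rose, and ZBTB7A fell (log2 fold change -0.60, adjusted p = 0.00144). In RS4;11 none of the 25 passed with all 12 libraries, where 0.0% of all tested genes did. The difference between the lines passed for 6 of them, 5 higher in TOM-1, where 11.9% of all tested genes passed.

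Of 18 genes taken as targets of PAX5, EBF1 and TCF3, 17 were tested, and in TOM-1 5 passed, 2 higher and 3 lower, where 31.9% of all tested genes passed. The median log2 fold change was -0.02, and 0.10 without the third control. VPREB1, part of the surrogate light chain, measured 286, 269 and 819.8 CPM against 198, 193 and 198 CPM. Its log2 fold change of -1.22 (adjusted p = 0.0157) was -0.50 (adjusted p = 8.41e-06) without the third control. BLK, a B-cell tyrosine kinase, also fell (log2 fold change -0.69, adjusted p = 0.0153; -0.37 without the third control), and BLNK and FCRLA rose (0.40 and 1.41). Without that library 6 of the 17 rose and 4 fell, where 41.6% of all tested genes passed.

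Of 16 listed FOXO targets, all tested, 7 rose and 3 fell in TOM-1, where 15.9% of all tested genes passed in each direction, with a median log2 fold change of 0.55. Without the third control 7 rose and 5 fell, where 21.8% of genes passed higher and 19.8% lower, and the median was 0.20. TXNIP, an inhibitor of glucose uptake, measured 52.8, 61.4 and 41.1 CPM in control and 229.9, 223 and 216 CPM with ADI-PEG20 (log2 fold change 2.11, adjusted p = 3.01e-06). IRS2, an adaptor of insulin receptor signalling, rose from 7.61 to 22.4 CPM to 63.2 to 74.9 CPM (log2 fold change 2.01, adjusted p = 0.0006), and GADD45A, a stress-response gene, from 44.6 to 64.0 CPM to 153 to 166 CPM (log2 fold change 1.65, adjusted p = 1.84e-05). PIK3IP1, CCNG2, CDKN1B and KLF2 were the others that rose. Those that fell include a lymphoid target of FOXO1, the interleukin-7 receptor gene. IL7R measured 210.1, 221 and 77.1 CPM in control and 68.5, 72.5 and 69.7 CPM with ADI-PEG20 (log2 fold change -1.27, adjusted p = 0.00553). On the CPM scale all controls exceeded all treated libraries, and the third control lay close above them. For IKZF1, with a wider gap in CPM, the third control fell below the treated libraries in TPM. BCL2L11, the death effector BIM, fell by 0.64 on the log2 scale (adjusted p = 0.0061). RAG1 and RAG2 did not pass. RAG1 lay at 752, 732 and 220.3 CPM in control and 791, 815 and 792 CPM with ADI-PEG20, and only the third control was far from the treated range.

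The 2 remaining target lists had few tested members, of which 2 of 8 and 1 of 7 passed in TOM-1, where 31.9% of all tested genes did. Without the third control 3 of 10 and 4 of 7 passed, where 41.6% of genes did. Of 12 LEF1 and TCF targets 8 were tested, of which NKD2 rose (log2 fold change 0.94, adjusted p = 0.000296) and DKK1 fell (log2 fold change -1.34, adjusted p = 0.0429; adjusted p = 0.0632 without the third control). Of 10 genes tied to BCL6 and the germinal centre 7 were tested, and CD69, an early activation marker, rose from 1.42 to 3.24 CPM to 9.68 to 12.4 CPM (log2 fold change 2.39, adjusted p = 0.000281). Of the genes of the 7 lists of relatives, inhibitors, regulators and targets, 36 passed in TOM-1. Without the third control 34 of them kept direction and call, all but TCF7L1 and DKK1. Over all tested genes 31.9% passed with that library and 41.6% without it, and how many of those calls were kept was not counted. In RS4;11 none of the tested genes of these 7 lists passed with all 12 libraries, where 0.0% of all tested genes did. Without the third TOM-1 control 0.317% of genes passed in RS4;11. In that fit 1 gene passed higher in each list of other regulators, of PAX5, EBF1 and TCF3 targets and of FOXO targets.

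**Figure D5:**
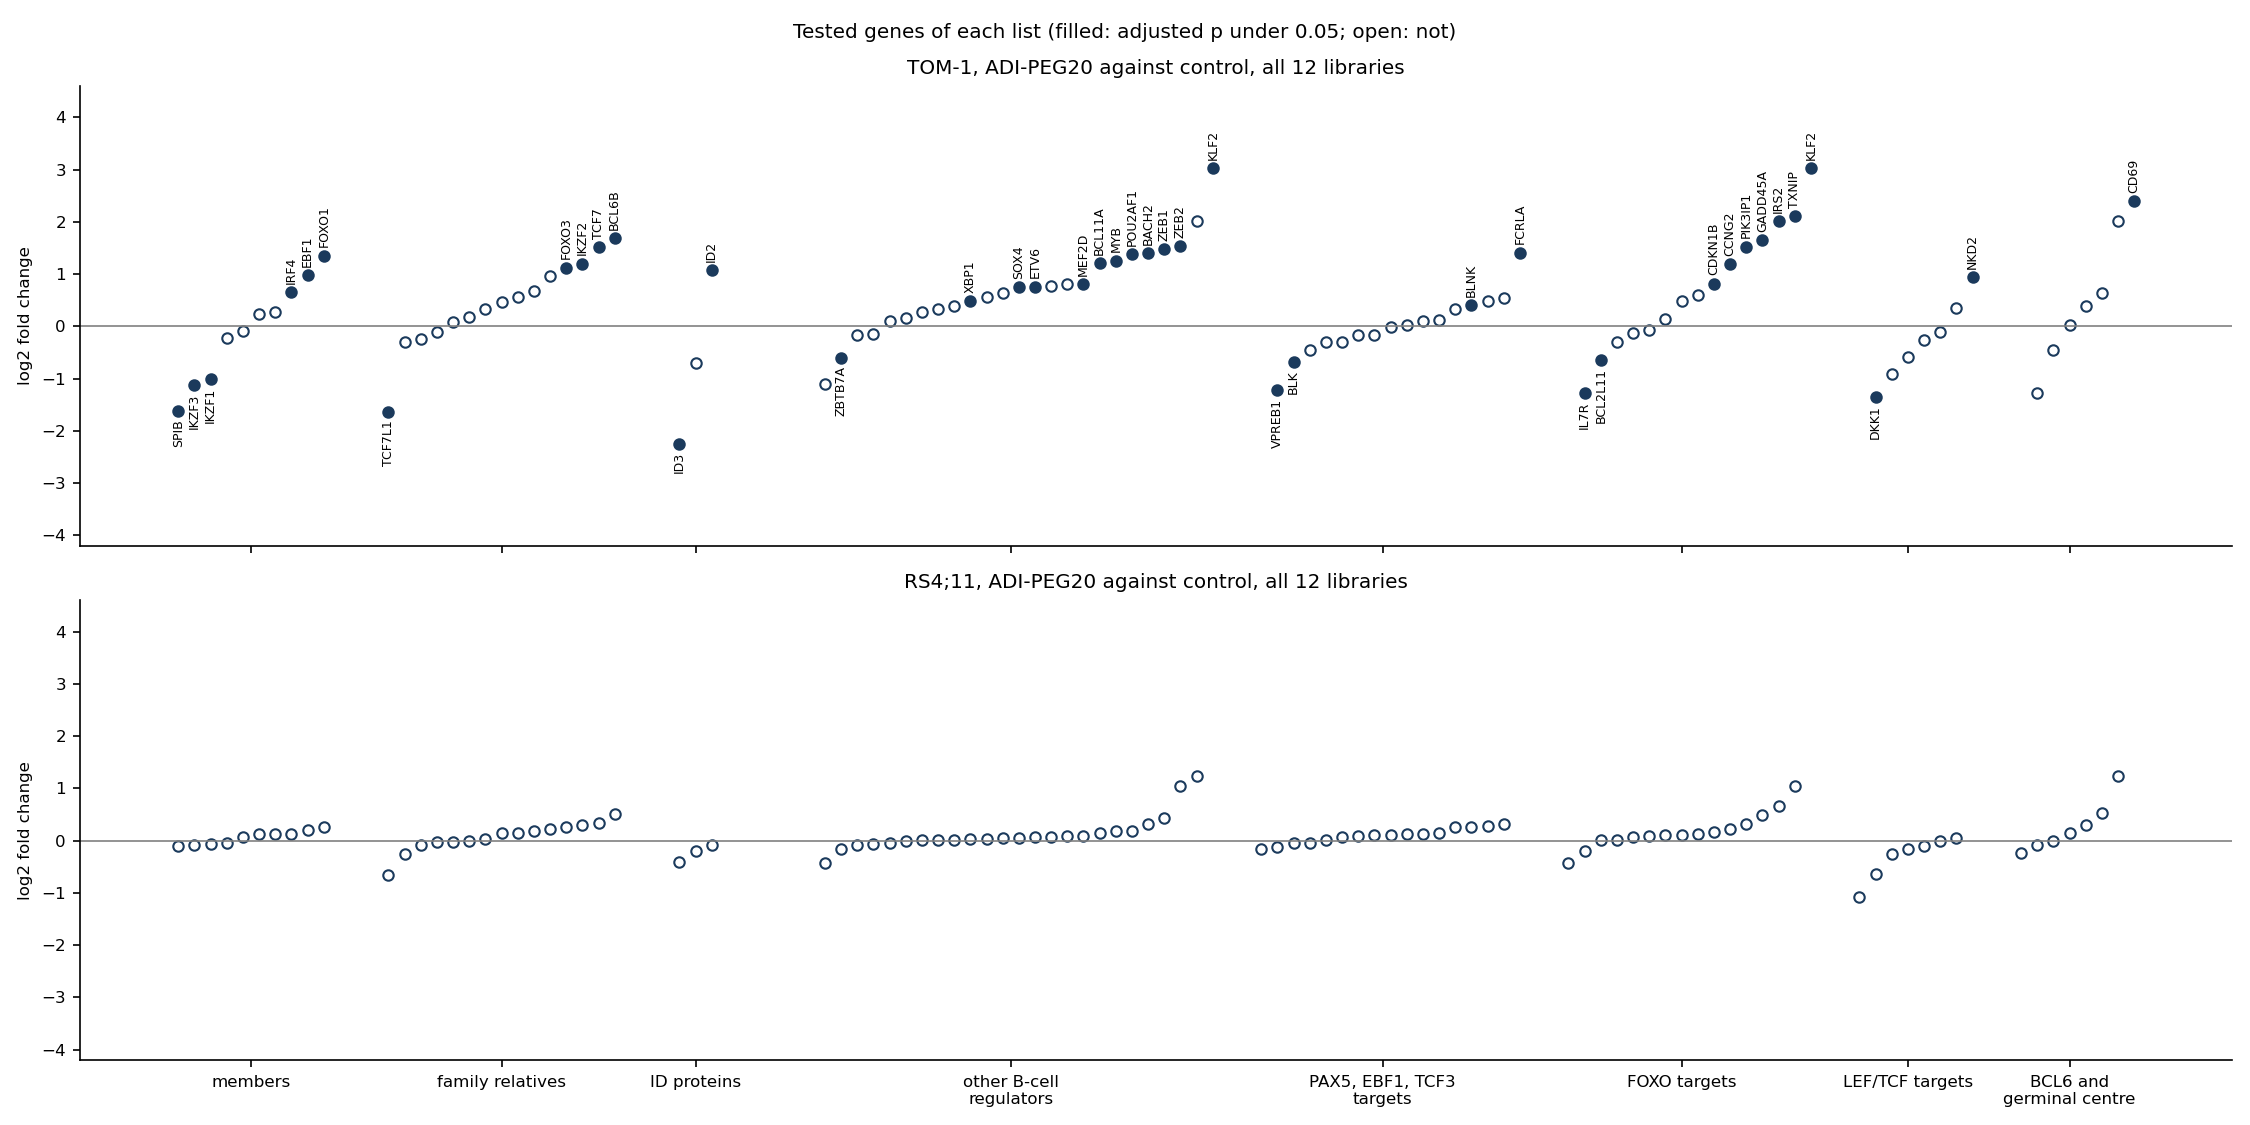
Log2 fold change with ADI-PEG20 (y axis) of each tested gene of the members and of the 7 lists (x axis, ordered by value within a list), in TOM-1 above and RS4;11 below. Filled, named points passed an adjusted p of 0.05, and genes with at most 3 counts in every library of a group, or not reported by name, are not drawn. In TOM-1 filled points lie mostly above 0 among the other B-cell regulators and FOXO targets, and in RS4;11 no point is filled.

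For each factor the 2 genes of most similar profile were sought among 10542 genes, as the smallest root mean square distance between centred log2 CPM values over the 12 libraries. IKZF1 was closest to CYFIP1 (distance 0.11) and CRYZ (0.14), where its own profile had a root mean square of 0.84 around its mean. IRF4 was closest to MFHAS1 (0.06) and TRIM37 (0.07) and FOXO1 to NR1D2 (0.13) and WDR48 (0.14), with own spreads of 0.53 and 0.61. EBF1 was closest to ARHGEF6 (0.10) and FAM91A1 (0.10), with an own spread of 0.52. IKZF3 and SPIB, whose spreads of 1.66 and 1.71 come mostly from the gap between the lines, had no neighbour nearer than CNN2 (0.21) and HTRA3 (0.37). The profiles share library effects, including those of the third TOM-1 control, so the distances describe these 12 libraries.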

How the data were processed

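Poly(A)-selected RNA of 12 libraries was measured. The authors deposited whole-number counts per Ensembl gene, made with STAR, SAMtools and featureCounts on hg38, per the submitters' processing notes. The annotation release, the settings and the use of strand are not given in the sources used here. Reads of overlapping genes may therefore be misplaced or left uncounted. Of 60664 genes 29301 had no counts. The members and lists were chosen with earlier results of these data known. Counts were filtered by expression (17349 genes kept), scaled by TMM and tested with edgeR 4.0.16 (quasi-likelihood, 1 fit of 4 groups and 12 libraries, 5 contrasts), with Benjamini-Hochberg adjustment over all tested genes and a threshold of 0.05. CPM uses TMM-scaled totals, and TPM uses exonic lengths of GENCODE release 29. Scripts were tested on simulated data. All members were named, as were 12 fixed paralogs and ID1 to ID4; from each list, per contrast and direction, up to 4 of the largest called changes with a mean of at least 5 CPM in a group. TCF7L1, SOX4, CDKN1B and the other-cell and B-lineage markers were named after their values were seen. Some list genes are counted but not reported here by name. The check of shared replicate numbers gave correlations of -0.06 to 0.15 between same-numbered libraries, so the numbers were not used as pairs. Alternatives were DESeq2 1.42.0, its size factors, upper-quartile scaling, no filter, a stricter filter, a replicate block, sample quality weights, the compared groups alone, and each library left out. p-values measure the spread between these libraries, which may be technical.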

Additional observations from a re-analysis of the deposited data

Results flagged for a closer look

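In 19 of the genes chosen by the naming rule the responses to ADI-PEG20 differed between TOM-1 and RS4;11. This rests on the test of the difference itself (edgeR, adjusted p under 0.05), which 11.9% of all tested genes passed. Beyond the 10 factors and the fixed paralogs and inhibitors, the rule takes only genes that passed, so the selection largely sets this number. Values are the TOM-1 log2 fold change minus the RS4;11 one. In RS4;11 alone 0 of the 17349 tested genes passed with all 12 libraries, these 19 included. Of the 10 B-lineage factors, IKZF1 (-1.08), IKZF3 (-1.06) and SPIB (-1.74) were lower. Among their relatives and inhibitors TCF7 was higher (1.77) and ID3 lower (-2.05). TCF7 passed narrowly (adjusted p = 0.0492), and with DESeq2 size factors no relative passed for this difference. Among other B-cell regulators POU2AF1 (1.37), MYB (1.27), BCL11A (1.13) and MEF2D (0.85) were higher and ZBTB7A (-0.51) lower. ETV6 (0.74) and the myeloid markers CSF1R (-2.98) and CEBPA (-1.29), which the rule does not choose for this contrast, passed the same test. Of the FOXO targets PIK3IP1 (1.95), TXNIP (1.89), IRS2 (1.70) and GADD45A (1.64) were higher, and IL7R (-1.40) and BCL2L11 (-0.74) lower. NKD2 (0.90) and CD69 (2.09) were higher. DKK1 was lower (-3.998), but with at most 6 counts in any RS4;11 library its fitted difference depends on the smoothing of low counts and is no bound.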

How the results depend on the processing

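Over the 5 contrasts the 10 factors had 1040 alternative values, of which 935 kept direction and side of the threshold, 39 lost the call, 39 gained one and 27 changed sign. No factor passed in RS4;11 under any alternative. The cause of the changes was not tested, except that leaving out libraries or groups also leaves fewer samples.

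In TOM-1, called genes numbered 5527, 8434 with sample quality weights and 2639 with the TOM-1 groups alone, where 3 of the 10 factors passed; leaving out 1 library gave 3960 to 7616 genes. In RS4;11 the count of 0 became 17 with quality weights, 3 with its groups alone, 31 without TOM-1 control replicate 3 under DESeq2 size factors (chosen after seeing the data), and 0 to 58 with 1 library left out. For the difference, 2072 genes became 3215 with DESeq2, 5868 with quality weights and 5503 without that replicate under DESeq2 size factors. With 1 library left out they became 1169 to 5567. In these fits, in that order, the 3 factors became 5, 7, 6 and 1 to 6. By edgeR with TMM, 11.9% of all tested genes passed with all 12 libraries and 30.4% without that replicate, where 6 factors passed. Between control lines, 6014 genes became 10037 with quality weights, 3548 with the control groups alone (3 factors), and 9684 without that replicate under DESeq2 size factors; with 1 library left out the range was 4731 to 9681.

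Some values changed sign. With 1 library left out, PAX5 in TOM-1 ran from -0.0026 (without the third control) to 0.41, its difference from -0.13 to 0.28 and its control-line value from -0.069 to 0.41. The BCL6 difference ran from -0.030 to 0.30, the LEF1 difference from -0.20 to 0.016 and LEF1 between control lines from -0.23 to 0.055. In RS4;11 IKZF3 ran from -0.23 to 0.046, SPIB from -0.048 to 0.20 and LEF1 from -0.075 to 0.0025, and TCF3 between treated lines from -0.045 to 0.087. Quality weights gave -0.095 and -0.046 for the PAX5 and BCL6 differences and 0.044 for LEF1 between control lines. Without the third TOM-1 control under DESeq2 size factors these were -0.14, -0.045 and 0.036, and PAX5 in TOM-1 -0.013. Upper-quartile scaling gave -0.0037 for TCF3 between treated lines.

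With the replicate block, called genes numbered 5324 in TOM-1, 0 in RS4;11, 1939 for the difference, 5647 between control lines and 7964 between treated lines. The block changed 3 of 50 calls, all of the difference: FOXO1 and IRF4 gained and SPIB lost theirs. Depth limits SPIB in TOM-1 (8 to 79 counts) and, in RS4;11, IKZF3 (91 to 162 counts).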
